A study of Mus musculus with 2 samples.

Results

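The transcription regulators Tcf7, Lef1, Satb1, Bach2, Id3, Foxp1, Foxo1 and Ets1 were followed in CD25+ CD4 T cells of the mouse. They are the 8 of 31056 rows of the gene table whose symbol is on a list of factors known for holding T cells in a resting state. The rule uses symbols alone, but the list was drawn up with earlier results of these data known. The cells came from healthy female Myc fl/fl Foxp3 Cre/WT mice, sorted as CD4+ CD25+ and either YFP+ or YFP-, and were loaded as 1 droplet library of lymph node and 1 of spleen. In these mice both Myc alleles carry sites for the Cre recombinase in every cell, and Cre is made under the Foxp3 gene on 1 of the X chromosomes. Because each cell silences 1 X chromosome, regulatory T cells (Treg) that lack Myc and Treg that keep it live side by side in the same animal. Neither the number of animals nor their age is given, and each tissue is 1 library, so no value has a replicate check and no test was made. Levels are in CPM, a gene's UMIs summed over the cells of a gate and scaled to the gate's total, with a UMI marking 1 captured RNA molecule. Every interval is a 95% interval of the counting error alone.

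TCF-1 (the product of Tcf7) and LEF-1 are related DNA-binding proteins that partner with beta-catenin and with repressors of the TLE family, and both are high in naive and memory T cells. SATB1 organises chromatin and prepares Treg enhancers during thymic development. BACH2 is a repressor that occupies AP-1 sites and restrains effector genes, ID3 is an inhibitor of E proteins, FOXP1 and FOXO1 are forkhead factors that support quiescence and homing, and ETS1 is a broadly used T cell activator. In Treg, this group of factors is known to mark the resting or central state, which gives way to an effector state with surface KLRG1.

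On GRCm38, Tcf7 lies at chr11:52252371-52283014 on the minus strand, Lef1 at chr3:131110471-131224356 on the plus strand, Satb1 at chr17:51736187-51833290 on the minus strand and Bach2 at chr4:32238804-32586108 on the plus strand. Id3 lies at chr4:136143497-136145755 on the plus strand, Foxp1 at chr6:98925338-99522721 on the minus strand, Foxo1 at chr3:52268336-52353221 on the plus strand and Ets1 at chr9:32636221-32757820 on the plus strand. Every member except Id3 overlaps at least 1 other annotated gene, for example Bach2os on the strand opposite to Bach2. The labels do not say whether strand was used in counting, and how reads of an overlapping pair were assigned was not checked.

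RefSeq (GRCm38.p6) gives 17 start sites for 7 of the members; Ets1 is the other one. The 250 bases before each start were searched on both strands for a TCF/LEF motif (CTTTGA), a forkhead motif (GTAAACA), an ETS motif (CCGGAAG), a motif of BACH and AP-1 factors (TGANTCA) and the E-box of Myc (CACGTG). Only 4 of the 17 windows held a match. The TCF/LEF motif was in 3 of them (1 window each of Lef1, Bach2 and Foxp1), and in 13.8% of all 32851 windows of that length. The ETS motif was in 2 (Tcf7 and Bach2; 6.91% of all windows) and the E-box in 1 (Lef1; 6.02%), while the forkhead motif (3.17%) and the BACH motif (6.75%) were in none. The windows of Tcf7, Lef1 and Bach2 with a match are printed 5′ to 3′ because these genes are among the members that were higher together in the ICRE-positive cells described next. The capitals mark the motif letters, and a match is a string of letters, not a shown binding site.
Tcf7, chr11:52282596-52282845, minus strand, a start inside the gene: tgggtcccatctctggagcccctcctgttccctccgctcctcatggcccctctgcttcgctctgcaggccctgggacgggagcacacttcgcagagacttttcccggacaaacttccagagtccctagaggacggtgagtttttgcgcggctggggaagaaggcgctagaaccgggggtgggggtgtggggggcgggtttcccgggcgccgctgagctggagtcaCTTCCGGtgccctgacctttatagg
Lef1, chr3:131156044-131156293, plus strand, a start inside the gene: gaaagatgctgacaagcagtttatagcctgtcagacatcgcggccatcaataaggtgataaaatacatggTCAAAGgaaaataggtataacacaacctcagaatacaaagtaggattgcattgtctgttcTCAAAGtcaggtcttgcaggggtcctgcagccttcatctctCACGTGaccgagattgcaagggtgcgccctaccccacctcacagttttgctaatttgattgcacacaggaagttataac
Bach2, chr4:32417185-32417434, plus strand, a start inside the gene: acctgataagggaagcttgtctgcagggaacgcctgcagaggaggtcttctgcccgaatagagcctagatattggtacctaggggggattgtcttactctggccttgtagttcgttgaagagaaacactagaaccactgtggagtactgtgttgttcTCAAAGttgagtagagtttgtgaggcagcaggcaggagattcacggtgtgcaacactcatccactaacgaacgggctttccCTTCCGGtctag
The last base of each run is the base before the start site, and all 3 starts lie within the gene spans given above rather than at their 5′ ends. The Tcf7 window has the ETS letters from 25 bases before the start, and the Bach2 window has them from 12 bases before it. Lef1 has TCF/LEF letters from 180 and 120 bases before its start, and Bach2 from 93 bases before its start.

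After filters, 4613 lymph node cells (12114408 UMIs, median 1991 per cell) and 6337 spleen cells (15888857 UMIs, median 1910 per cell) were kept, and 53 barcodes occur in both libraries. Of the genes of the sort, Cd4 stood at 126.5 CPM in lymph node and 115.5 in spleen, and Il2ra (CD25) at 137.4 and 188.1. An Il2ra UMI was seen in 25.8% and 31.1% of the cells. Cd3e stood at 763.2 and 705.0 CPM, Ikzf2 (Helios, a Treg factor) at 701.7 and 663.8, and Foxp3 at 114.2 and 109.0. A Foxp3 UMI without an ICRE UMI was seen in 946 lymph node and 1156 spleen cells. The gene table has a row named ICRE, whose sequence is not given. It is read here, as an assumption, as the transcript of the Foxp3 allele that carries Cre. The sort used YFP, yet the EYFP row was almost empty, with 0 UMIs from lymph node against 2 from spleen. A separate CRE row stayed at 0 for either library, while ICRE reached 442 UMIs (lymph node) and 651 UMIs (spleen). The bearing of these empty rows on the assumption was not tested. ICRE without Foxp3 was seen in 345 and 498 cells, both together in 23 and 43. Myc, the targeted gene, stood at 39.2 CPM in Foxp3-positive and 4.88 CPM (3 UMIs) in ICRE-positive lymph node cells, and at 49.8 and 16.3 CPM in spleen. Whether the counted 3′ end of Myc lies in the deleted part is not given.

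None of the 8 regulators differed by 1.5-fold or more between the tissues as a whole, against 1.59% of the 5030 genes with a mean of at least 20 CPM. Id3 had the widest gap of the 8, with 149.7 CPM in lymph node and 196.4 in spleen, 1.31-fold higher in spleen (1.24 to 1.39). Tcf7 stood at 129.7 and 118.8 CPM, Lef1 at 184.8 and 213.7, Satb1 at 161.7 and 167.5, and Bach2 at 37.6 and 42.8. Foxp1 stood at 248.5 and 275.7 CPM, Foxo1 at 121.8 and 121.4, and Ets1 at 476.3 and 438.2. The gates within a tissue lay further apart than this, as the plot of levels by gate shows.

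**Figure D1:**
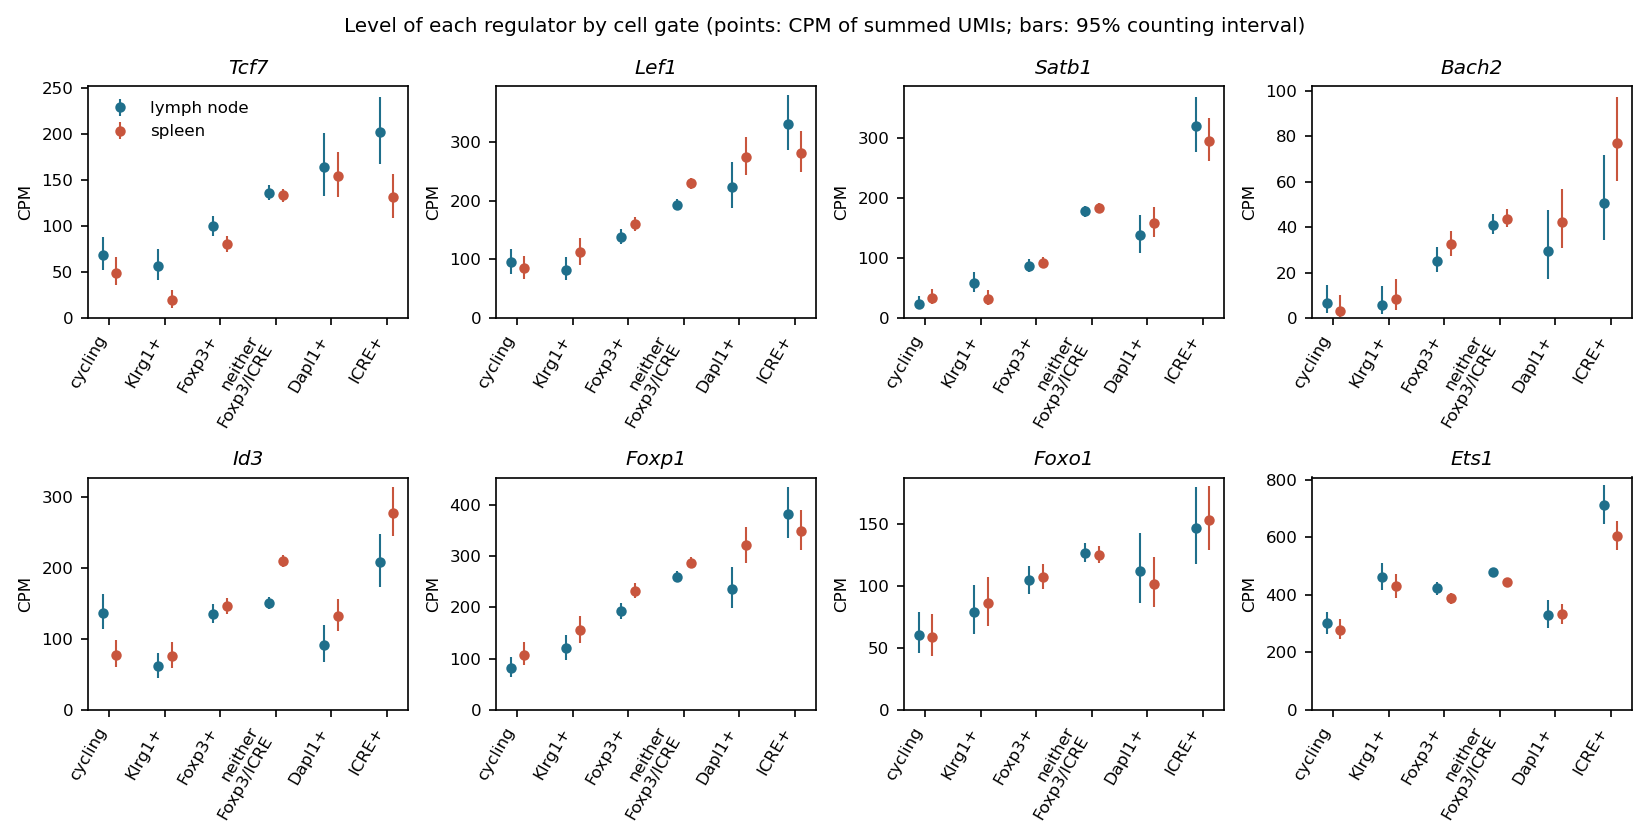
CPM of each regulator (vertical axes, from 0) in 6 gates of lymph node and spleen cells; points are the CPM of summed UMIs and bars the 95% counting interval. Satb1 is at 320.5 and 295.2 CPM in ICRE-positive cells and at 24.7 and 34.4 CPM in cycling cells, while Ets1 in Klrg1-positive cells is above its level in Dapl1-positive cells in both libraries.

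ICRE-positive cells held more of all 8 regulators than Foxp3-positive cells of the same tissue. Satb1 stood at 320.5 CPM in ICRE-positive and 87.1 in Foxp3-positive lymph node cells, 3.68-fold higher (3.05 to 4.43), and at 295.2 and 92.5 CPM in spleen, 3.19-fold higher (2.72 to 3.74). Lef1 stood at 330.2 and 138.4 CPM in lymph node (2.39-fold, 2.01 to 2.82) and at 281.1 and 159.6 in spleen (1.76-fold, 1.52 to 2.04). Tcf7 stood at 201.7 and 99.8 CPM in lymph node (2.02-fold, 1.63 to 2.50) and at 131.3 and 80.3 in spleen (1.64-fold, 1.32 to 2.02). Bach2, with few UMIs, stood at 50.4 and 25.3 CPM in lymph node (31 and 82 UMIs; 1.99-fold, 1.27 to 3.04) and at 77.1 and 32.5 in spleen (2.37-fold, 1.76 to 3.19). Id3 was 1.54- and 1.90-fold higher, Ets1 1.68- and 1.56-fold, and Foxo1 1.40- and 1.43-fold. Foxp1 stood at 382.3 and 192.1 CPM in lymph node and at 348.3 and 232.0 in spleen, the latter just at the threshold. Thus 7 of the 8, all but Foxo1, were at least 1.5-fold higher in each tissue, where 13.5% of 5110 lymph node genes and 11.9% of 5099 spleen genes were. The median log2 ratio over all these genes was 0.11 and 0.12.

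Depth moved with this contrast. The median depth of ICRE-positive cells was 1599 UMIs (lymph node) and 1630 (spleen), and that of Foxp3-positive cells 2799.5 and 2905. The level of these regulators itself varied with depth: over all lymph node cells Satb1 stood at 339.6 CPM in cells under 1500 UMIs, 208.7 in cells with 1500 to 2500, and 103.7 in cells over 2500. When Foxp3-positive cells were weighted to the depths of the ICRE-positive ones, Satb1 kept a log2 ratio of 1.10 in lymph node and 0.98 in spleen, where it had been 1.88 and 1.67. Lef1 then stood at 0.73 and 0.50, Tcf7 at 0.66 and 0.23, and Bach2 at 0.75 and 0.57. Id3 in lymph node went to -0.08 and Foxo1 to -0.07, and the number of regulators past 1.5-fold became 5 in lymph node and 2 (Satb1 and Id3) in spleen. Under this weighting 7.11% of all spleen genes were higher by that much.

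A comparison within bands of depth, added after seeing the data, was made next. Satb1 in ICRE-positive cells was at least 1.5-fold higher in all 6 bands, by 2.17-, 2.10- and 6.17-fold in lymph node (under 1500, 1500 to 2500, over 2500 UMIs) and by 1.88-, 1.76- and 3.53-fold in spleen. Lef1 in lymph node stood at 303.8 against 202.9 CPM under 1500 UMIs (interval of the ratio 0.836 to 2.85) and was 2.18- and 2.39-fold higher in the deeper bands. In spleen Lef1 was higher by 1.16-, 1.49- and 1.56-fold, the first with an interval from 0.739 to 1.84. Tcf7 was higher by 1.61-, 1.70- and 2.26-fold in lymph node, but in spleen by 1.02- and 1.07-fold in the lower bands and 2.10-fold in the deepest. The interval includes 1 for Tcf7 under 1500 UMIs in lymph node (0.789 to 3.60). It also does in the lower bands of spleen (0.563 to 1.91 and 0.729 to 1.55). The deepest band held only 32 ICRE-positive lymph node and 62 spleen cells. Bach2 in spleen was level under 1500 UMIs (73.3 against 74.0 CPM, interval of the ratio 0.418 to 2.52) and stood at 81.6 against 27.2 CPM over 2500. Under 1500 UMIs in lymph node, Id3 stood lower in ICRE-positive (184.5 CPM) than in Foxp3-positive cells (324.6 CPM, from 58 cells), and so did Foxo1 (162.8 and 284.0 CPM). Foxo1 was also lower in that band of spleen, at 112.1 and 139.7 CPM. The intervals of these Id3 and Foxo1 ratios all include 1. They run from 0.327 to 1.002 for Id3, and from 0.317 to 1.05 (lymph node) and 0.419 to 1.58 (spleen) for Foxo1.

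**Figure D2:**
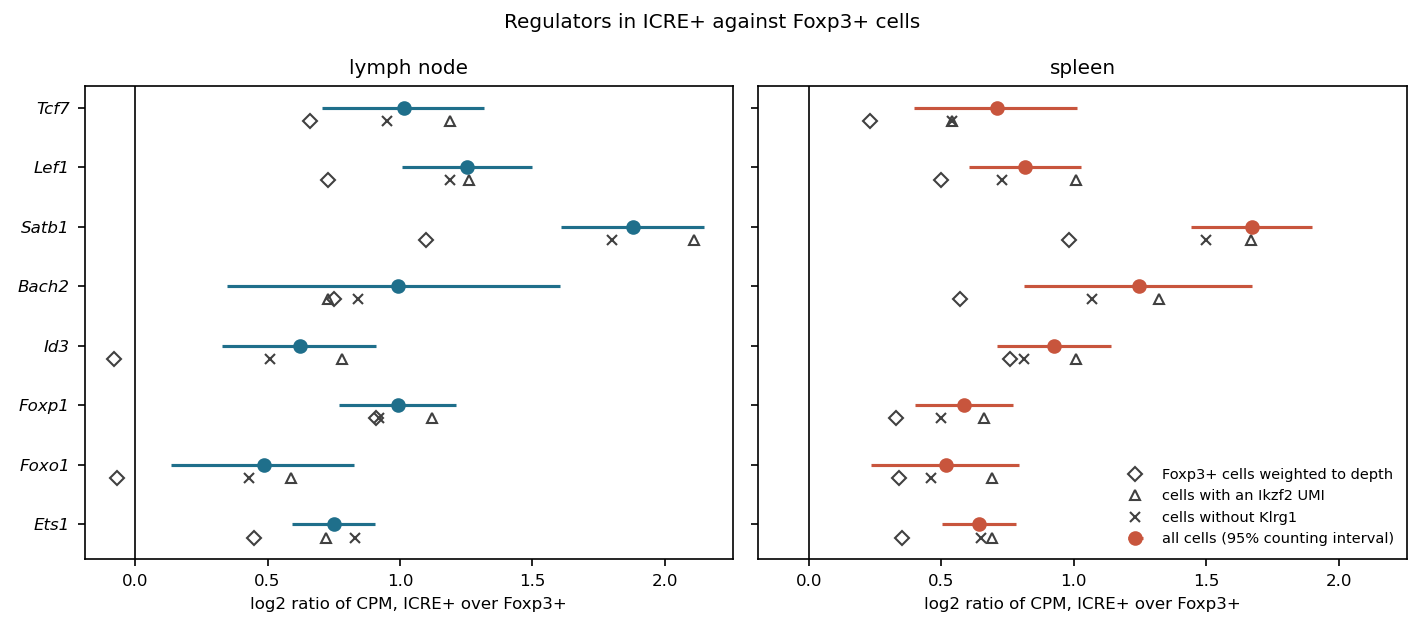
Log2 ratio of CPM in ICRE-positive over Foxp3-positive cells (horizontal axis) for each regulator; circles are all cells with the 95% counting interval, diamonds the same with Foxp3-positive cells weighted to depth, triangles cells with an Ikzf2 UMI, and crosses cells without Klrg1. Satb1 lies to the right of 0 under each setting, and the diamonds of Id3 and Foxo1 in lymph node lie at -0.08 and -0.07.

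The Foxp3-positive gate held 95 Klrg1-positive cells without Dapl1 in lymph node and 110 in spleen, and the ICRE-positive gate 2 and 1. Without any Klrg1-positive cell the log2 ratio of Satb1 was 1.80 in lymph node, that of Lef1 1.19 and 0.73 (lymph node and spleen), and that of Tcf7 0.95 and 0.54. Among lymph node cells with Il2ra but neither Klrg1 nor Dapl1, Satb1 stood at 304.0 CPM in 109 ICRE-positive and 85.6 in 250 Foxp3-positive cells, 3.55-fold higher. In the spleen cells of that kind Satb1 was 3.12-fold higher (292.0 against 93.5 CPM) and Bach2 2.86-fold (94.5 against 33.1 CPM), but Tcf7 only 1.21-fold with an interval from 0.796 to 1.79. Restricting both sides to cells with an Ikzf2 UMI, also added after seeing the data, left log2 ratios of 2.11 for Satb1, 1.26 for Lef1 and 1.19 for Tcf7 in lymph node, while the spleen values were 1.67, 1.01 and 0.54. The summed level of 3 myeloid markers (Lyz2, Csf1r and Cst3) was 161.0 CPM in ICRE-positive and 153.2 in Foxp3-positive lymph node cells and 166.0 and 222.1 in spleen, with Csf1r at 0 in all. Cd79b, a B cell receptor gene, stood at 14.6 CPM in ICRE-positive and 17.9 in Foxp3-positive lymph node cells, and at 18.45 and 19.95 in spleen.

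Other genes of the resting state followed the same contrast. Of 18 listed resting T cell genes, 14 were at least 1.5-fold higher in ICRE-positive lymph node cells and 11 in spleen, with none lower. Of all genes, 13.5% and 11.9% were higher by that much. The values in this paragraph are not weighted to depth, so they carry the depth difference given above. Bcl2, a survival gene, stood at 1298 and 413.9 CPM in lymph node and at 1672 and 483.6 in spleen. S1pr1, the receptor for exit from lymphoid tissue, was 2.62- and 2.06-fold higher, and Klf2, which drives S1pr1, 2.79- and 2.29-fold. Of the 7 listed effector transcription factors with enough counts, 4 were lower in each tissue and 1 was higher in lymph node, where 7.73% of all lymph node genes and 7.1% of spleen genes were lower by 1.5-fold. Maf, a factor of effector and follicular T cells, stood at 26.0 CPM in ICRE-positive and 137.4 in Foxp3-positive lymph node cells, and at 6.51 and 114.2 in spleen. Partners and relatives of the regulators lay closer to the median gene: 1 of 10 was higher in lymph node (Runx1, 1.67-fold) and 1 of 11 in spleen (Tcf12, an E protein, 1.52-fold).

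Counted per cell, after thinning every cell to 1200 UMIs and leaving out 19 and 39 shallower ICRE-positive and 19 and 33 shallower Foxp3-positive cells, ICRE-positive cells showed a mean of 2.16 of the 8 regulators in lymph node and 1.99 in spleen. Foxp3-positive cells showed 1.28 and 1.37. No regulator at all was seen in 7.98% of ICRE-positive lymph node cells (5.28 to 11.5) and 23.3% of Foxp3-positive ones (20.6 to 26.2). In spleen the shares were 11.3% (8.58 to 14.6) and 23.7% (21.2 to 26.3). Without thinning the same shares were 4.35% and 4.86% in lymph node and 4.82% and 3.98% in spleen, so the difference in this share appears only after thinning. Thinning evens the UMIs sampled from each cell, but it does not match the cells on their own depth, which was greater in Foxp3-positive cells.

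Against cells with neither transcript, cells with Foxp3 or ICRE, as 1 gate, had lower levels of all 8 regulators. The ratio's interval includes 1 for Id3 and Ets1 in lymph node and for Bach2, Foxo1 and Ets1 in spleen. The pooled gate was deeper, with medians of 2359 and 2438 UMIs against 1856 and 1799. With the cells with neither weighted to depth, log2 ratios turned positive for Id3 (0.07) and Ets1 (0.09) in lymph node. In spleen they did for Bach2 (0.02), Foxo1 (0.04) and Ets1 (0.15), and no other member changed sign under that setting. This gate pools cells that lie on opposite sides: in lymph node the ICRE-positive cells were above the cells with neither in all 8 (Satb1 320.5 and 177.7 CPM, Lef1 330.2 and 192.7, Ets1 710.9 and 479.3), and in spleen in all but Tcf7 (131.3 and 133.5 CPM). These levels were set side by side without a ratio, and ICRE-positive cells were the shallower side, with medians of 1599 and 1630 UMIs. Under 1500 UMIs in lymph node, they were below all cells of that depth in Bach2 (38.0 and 44.3 CPM) and Foxo1 (162.8 and 177.3). They were above in the other members, for example Satb1 (352.6 and 339.6 CPM). In that band of spleen, Lef1, Foxp1 and Foxo1 were below and the others above. For the pooled gate of spleen against cells with neither, Tcf7 stood at 88.7 and 133.5 CPM, 1.51-fold lower (1.35 to 1.67). It was the only member past 1.5-fold there, where 0.297% of 5057 genes were lower by that much. In lymph node no member was, against 0.358% of 5033 genes; Satb1 stood at 128.3 and 177.7 CPM there, 1.39-fold lower. The spleen call for Tcf7 sits at the threshold and was lost under 4 other settings. In lymph node the 3 haemoglobin genes used as erythroid markers summed to 363.2 CPM in cells with neither transcript, 108.1 in Foxp3-positive and 112.2 in ICRE-positive cells, and their part in these ratios was not tested.

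Klrg1 is a surface marker of effector Treg and Dapl1 a gene of resting T cells, and most of the regulators were lower in Klrg1-positive than in Dapl1-positive cells. Spleen cells with Klrg1 and no Dapl1 had 18 UMIs of Tcf7, or 19.6 CPM, and those with Dapl1 and no Klrg1 had 161, or 154.5 CPM, 7.89-fold more (4.84 to 13.7). In lymph node the levels were 56.4 and 164.3 CPM, 2.91-fold apart (2.03 to 4.23). Satb1 stood at 32.6 and 158.3 CPM in spleen (4.85-fold lower) and at 58.8 and 138.1 in lymph node (2.35-fold lower). Bach2 stood at 8.70 CPM (8 UMIs) and 42.2 CPM in spleen, 4.85-fold lower (2.26 to 11.9). In lymph node Bach2 had 5 and 17 UMIs and was under the 20 CPM minimum. Lef1 was 2.45-fold lower in spleen and 2.70-fold lower in lymph node, and Foxp1 2.06- and 1.97-fold lower.

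Of the members with enough counts, 6 of 8 in spleen and 4 of 7 in lymph node were at least 1.5-fold lower in Klrg1-positive than Dapl1-positive cells, where 7.74% of 5062 and 9.85% of 5048 genes were. Ets1 went the other way, at 461.9 against 330.4 CPM in lymph node (1.40-fold higher) and 429.4 against 331.9 in spleen (1.29-fold higher). The sides also differed in Treg markers: Ikzf2 stood at 1287 and 1345 CPM in Klrg1-positive cells and at 197.5 and 185.2 in Dapl1-positive ones, and a Foxp3 UMI was in 45.9% and 52.8% against 15.9% and 16.3% of cells. Among Foxp3-positive cells alone the log2 ratio of Tcf7 was -1.60 in lymph node and -3.53 in spleen, that of Lef1 -1.23 and -1.52, and that of Satb1 -1.95 and -2.43. Those values rest on 21 and 46 Dapl1-positive cells. Some markers of other cells differed too: the 3 myeloid markers summed to 214.8 and 99.7 CPM in lymph node and to 243.5 and 120.9 in spleen. Csf1r was at 0 on both sides of each. Lyz2 was also at 0 in Klrg1-positive but not in Dapl1-positive lymph node cells, so the 214.8 CPM is Cst3 alone. The B cell gene Cd79b stood at 25.2 CPM (21 UMIs) in Klrg1-positive and 10.5 CPM (6 UMIs) in Dapl1-positive lymph node cells, and at 26.1 (24 UMIs) and 11.5 (12 UMIs) in spleen. Its partner Cd79a had 2 and 0 UMIs in lymph node, while the spleen sides had 4 and 5. The part of such RNA in the result was not tested.

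The listed effector transcription factors lay opposite to the regulators. In spleen all 9 with enough counts were at least 1.5-fold higher in Klrg1-positive cells, and in lymph node 8 of 9 were higher and 1 lower, where 26.5% of all spleen genes and 22.3% of lymph node genes were higher by that much. Rora stood at 170.7 and 9.59 CPM in spleen and Maf at 262.0 and 17.3. Of the 18 resting genes, 6 were lower and 1 higher in each tissue. Ccr7, the lymph node homing receptor, stood at 34.8 and 430.7 CPM in spleen, and Igfbp4 at 12.0 and 268.6.

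Set against all Klrg1-negative cells, Klrg1-positive cells were at least 1.5-fold lower in 7 of 8 regulators in lymph node (5.16% of 5170 genes) and 6 of 8 in spleen (6.81% of 5216 genes). Id3, which had been 1.49- and 1.74-fold lower than in Dapl1-positive cells, stood at 60.8 CPM in positive and 156.3 in negative lymph node cells and at 75.8 and 203.9 in spleen. Ets1 was near level in both, at 459.9 against 477.5 CPM in lymph node (1.04-fold lower, 0.936 to 1.15) and 431.1 against 438.7 in spleen (1.02-fold lower, 0.920 to 1.13). Klrg1-positive cells were the deeper ones, with medians of 3142 and 3305 against 1948 and 1886.5 UMIs. With the negative cells weighted to that depth, Satb1 kept log2 ratios of -0.89 in lymph node and -1.82 in spleen. Foxo1 went from -0.62 to -0.32 in lymph node, under 1.5-fold, and from -0.53 to -0.20 in spleen. Ets1 turned from -0.05 to 0.25 in lymph node and from -0.03 to 0.33 in spleen.

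Tcf7 in Klrg1-positive cells rested on few UMIs and lay no higher than in cells gated as B cells, so no order of the tissues is read from it. It had 50 UMIs in 211 such lymph node cells (59.6 CPM) and 18 UMIs in 217 spleen cells (19.5 CPM). In cells gated as B cells, which should lack Tcf7, it stood at 61.0 and 49.4 CPM. After thinning, a Tcf7 UMI was in 5.37% of Klrg1-positive lymph node cells and 3.52% of spleen ones (12.8% and 7.37% unthinned; median depths 3142 and 3305 UMIs). The shares in B cells were 6.43% and 3.88% (17.7% and 11.3% unthinned; 3376 and 2542 UMIs). The B cell gate is no clean blank, since it held Cd3e at 554.7 and 348.2 CPM and Ikzf2 at 596.4 and 453.5. It therefore cannot set a background level for Tcf7. Satb1 stood at 60.8 and 32.5 CPM in Klrg1-positive cells and at 102.6 and 90.3 CPM in the B cell gate. That gate was not set as a blank for Satb1, so no background is read from it.

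Dapl1-positive cells were higher in some of the regulators and lower in others. Against Dapl1-negative cells, Tcf7 was 1.31-fold higher in lymph node and 1.32-fold in spleen (167.9 against 127.8 and 153.9 against 116.3 CPM), and Lef1 1.24- and 1.31-fold higher. Id3 was lower, at 90.0 against 152.6 CPM in lymph node (1.70-fold, 1.29 to 2.28) and 132.0 against 201.0 in spleen (1.52-fold, 1.28 to 1.82). It was the 1 member of 8 past 1.5-fold in each tissue, where 11.4% of 4929 and 6.81% of 4893 genes were lower by that much, so the count itself is near the background. Ets1 was also lower, by 1.47- and 1.34-fold. Satb1 stood at 140.2 against 162.8 and 157.8 against 168.2 CPM, with intervals of the ratio that include 1. Dapl1-positive cells were the deeper ones, with medians of 2770 and 2868 against 1964 and 1879.5 UMIs. With the negative cells weighted to that depth, the log2 ratio of Satb1 turned from -0.22 to 0.41 in lymph node. In spleen it turned from -0.09 to 0.41. Lef1 then stood at 0.68 and 0.69, both past 1.5-fold. Id3 then stood at -0.59 in lymph node and -0.29 in spleen, the latter under 1.5-fold. Of the 18 resting genes, 4 were at least 1.5-fold lower and 1 higher in each tissue. Their median log2 ratio was -0.43 in lymph node and -0.37 in spleen, against -0.07 and -0.11 over all genes. Of the effector transcription factors with enough counts, 4 of 8 in lymph node and 5 of 7 in spleen were lower, with none higher.

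Il2ra, the gene of CD25, gave small differences. None of the 8 was 1.5-fold lower in Il2ra-positive cells of either tissue, as were 0.199% of 5029 and 0.159% of 5040 genes. Tcf7 nevertheless was lower in cells with Il2ra UMIs: 139.3 CPM at 0, 106.6 at 1 and 104.2 at 2 or more in lymph node, and 133.1, 99.2 and 81.3 in spleen. In lymph node it was near level between 1 and 2 or more UMIs. Satb1 stood at 171.2, 142.7 and 127.9 CPM in lymph node and at 179.7, 151.9 and 133.6 in spleen. Foxo1, which drives Il7r and Klf2, stood at 129.5, 109.2 and 88.6 CPM in lymph node and at 130.0, 108.4 and 101.1 in spleen. Lef1 showed no such order in lymph node, at 186.4, 173.8 and 196.5 CPM. Cells with 2 or more Il2ra UMIs were deeper, with medians of 2538.5 and 2439 UMIs against 1940 and 1829 at 0. For Il2ra-positive against negative cells, the log2 ratio of Satb1 was -0.31 in lymph node and -0.30 in spleen. It became -0.15 and -0.08 with the negative cells weighted to depth. That of Tcf7 was -0.40 and -0.52, and no other setting brought it closer to level than -0.35 and -0.40.

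**Figure D3:**
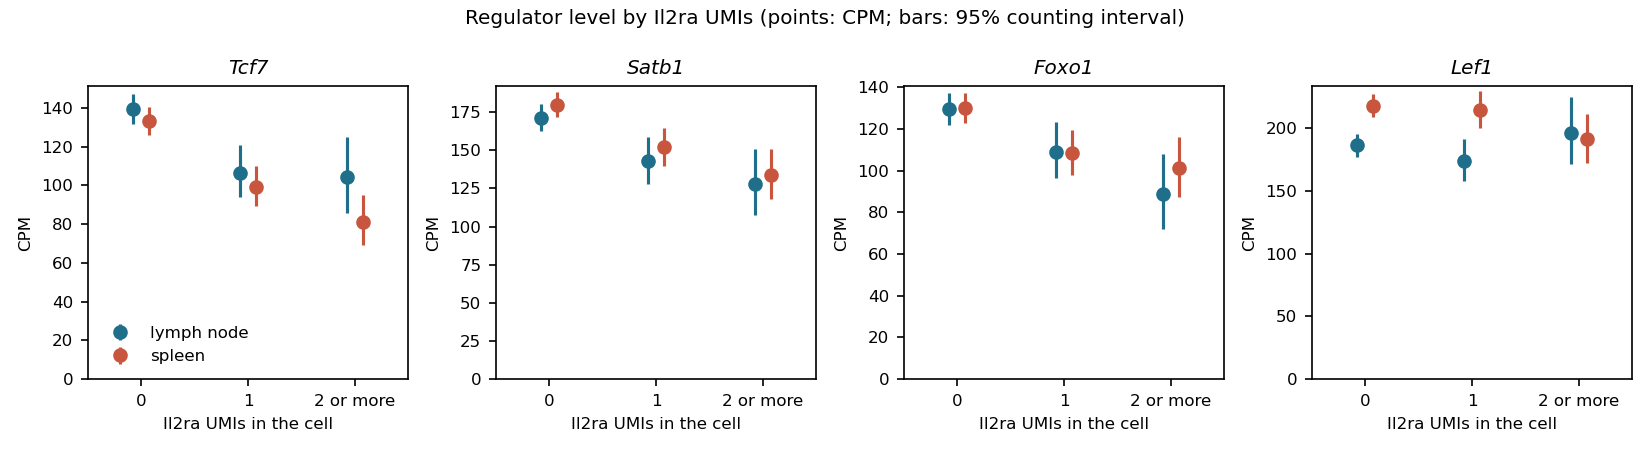
CPM (vertical axes, from 0) of Tcf7, Satb1, Foxo1 and Lef1 in cells with 0, 1 and 2 or more Il2ra UMIs; points are the CPM of summed UMIs and bars the 95% counting interval. Tcf7 in spleen goes from 133.1 to 81.3 CPM, and Lef1 in lymph node is at 186.4 CPM at 0 and 196.5 CPM at 2 or more UMIs.

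Cycling cells, with 2 or more UMIs over Mki67 and Top2a, had lower levels of all 8 regulators than cells with none, although the interval for Id3 in lymph node (1.12-fold lower, 0.932 to 1.36) includes 1. In lymph node 7 of 8, all but Id3, were at least 1.5-fold lower (17.5% of 5109 genes), and in spleen 8 of 8 (16.7% of 5129 genes). Satb1 had 22 UMIs in 81 cycling lymph node cells, or 24.7 CPM, against 176.8, 7.17-fold lower (4.72 to 11.5), and 34.4 against 179.5 CPM in spleen, 5.22-fold lower. Bach2 had 6 UMIs in lymph node (6.72 against 40.2 CPM) and 3 UMIs in 89 spleen cells (3.44 against 46.0 CPM), 13.4-fold lower with an interval from 4.55 to 64.9. Foxp1 was 3.23- and 2.68-fold lower, Foxo1 2.12- and 2.16-fold, and Tcf7 1.97- and 2.52-fold. Id3 stood at 136.7 CPM in cycling and 153.2 in other lymph node cells, and at 78.0 and 206.2 in spleen; the difference between the libraries was not tested. The resting genes lay the same way, with 17 of 17 lower in lymph node and 17 of 18 in spleen.

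Cycling cells were much deeper, with medians of 9247 and 9093 UMIs against 1945 and 1883. With the other cells weighted to that depth, Satb1 kept log2 ratios of -0.96 in lymph node and -1.17 in spleen, but 3 rather than 7 members stayed past 1.5-fold in lymph node, where 12.5% of genes were lower by that much. Ets1 reversed there, to 0.07 in lymph node and 0.32 in spleen, Foxo1 in lymph node to 0.21 and Id3 in lymph node to 0.36. The part of depth in these levels was not tested.

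Across exclusive groups of at least 30 cells, formed from the tissue, the Foxp3 or ICRE transcript and the Klrg1, Dapl1 or Il2ra state, 19 groups could be compared. The lowest group was the Klrg1 and Foxp3 cells of 1 tissue or the other for every member but Ets1: Tcf7 stood at 9.66 CPM (5 UMIs), Satb1 at 13.5 (7 UMIs) and Bach2 at 1.93 (1 UMI) in spleen, and Lef1 at 76.3 (32 UMIs) in lymph node. The place of Tcf7, Satb1 and Bach2 in that order, and their correlations, thus lean on few UMIs. Ets1 was lowest in spleen cells with Dapl1 and Foxp3, at 313.7 CPM. The highest group was an ICRE-positive one for all 8, for example 210.1 CPM of Tcf7 and 324.0 of Satb1 in lymph node cells with none of the state genes. These groups share libraries but differ in depth: medians were 1599 and 1630 UMIs in ICRE-positive cells and 3560 and 3901 in cells with Klrg1 and Foxp3. The part of depth in the correlations given here and below was not tested. Over the groups, Pearson's r of log2 levels between Bach2 and Foxp1 was 0.942, between Lef1 and Foxp1 0.939, and between Tcf7 and Satb1 0.872. Ets1 had values from 0.194 (with Tcf7) to 0.574 (with Foxo1).

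**Figure D4:**
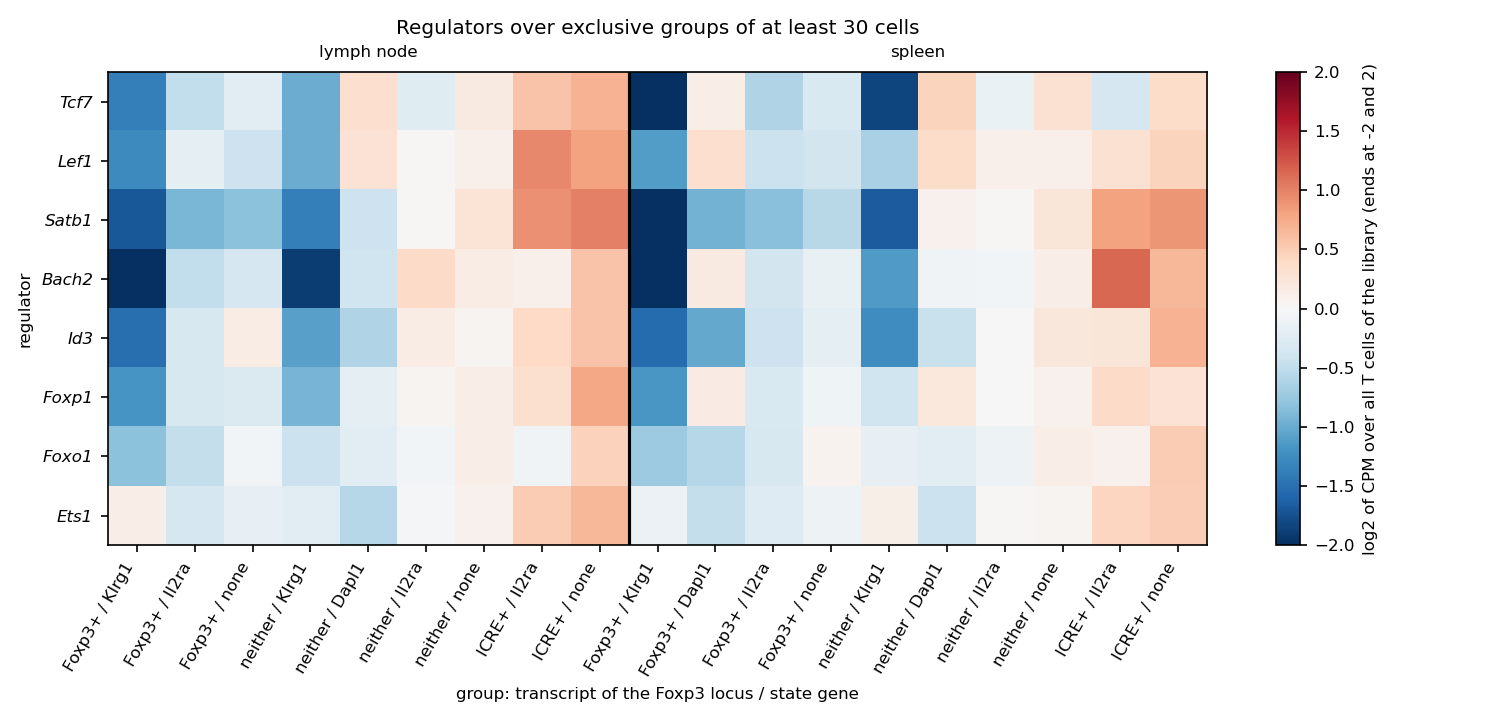
Colour gives the log2 ratio of each regulator's CPM (rows) in 19 exclusive groups of cells (columns) to all T cells of that library, with the scale ending at -2 and 2. The Klrg1 columns are blue for all members but Ets1, and the ICRE-positive columns are red for Satb1 (320.5 and 295.2 CPM over all ICRE-positive cells).

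Among 2471 genes, those with a profile over the 19 groups most like that of Tcf7 were Cd9 (r of 0.937), Evl (0.931) and Gm12840 (0.907). For Lef1 they were Itm2a (0.940), Ikzf1 (0.937) and Vps37b (0.933). For Satb1 they were Chchd10 (0.956), Tecpr1 (0.948) and Pik3ip1 (0.947), the last an inhibitor of PI3K and on the list of resting genes. For Bach2 they were Bcl2 (0.943), Ndrg3 (0.921) and Pacsin1 (0.919). Bcl2 ranged over these groups from 59.9 to 2004 CPM.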

How the data were processed

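Single-cell libraries of lymph node and spleen (10x 3′ V2 kit, per the labels' protocols) were used. The deposited values are raw UMI counts per gene and cell; Cell Ranger 3.0.1 and mm10 are named in the submitters' processing notes, with other settings not given in the sources used here. Cells needed 500 or more genes and no more than 10% of UMIs from mitochondrial genes (259 lymph node and 297 spleen barcodes left out), without those with 2 or more UMIs over B cell, CD8 or NK genes (207 and 206). Doublets were not called. Counts were summed per gate (1 UMI or more) and scaled to CPM, with exact Poisson intervals; ratios have exact conditional and shares exact binomial (Clopper-Pearson) intervals (scipy 1.17.1, numpy 2.4.6). Intervals cover counting error alone. A gene was compared at a mean of at least 20 CPM and called at 1.5-fold. Ratios and intervals were tested on simulated data, and other gates, depth weights, scalings and filters were tried. Besides the members, up to 4 genes of each list with the largest ratios of 1 sign in both libraries are named, and the 3 most alike genes over groups, by r of log2(CPM + 10). The members and lists were chosen with earlier results of these data known.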

Additional observations from a re-analysis of the deposited data

Results flagged for a closer look

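A pair of values pointed in opposite directions in the tissues. Foxp1 in Dapl1-positive against negative cells had a log2 ratio of -0.08 in lymph node and 0.24 in spleen, a gap of 0.32. Bach2 in Il2ra-positive against negative cells had 0.06 in lymph node and -0.09 in spleen, a gap of -0.15. Each tissue is 1 library, all 4 values lie under 1.5-fold, and the differences were not tested.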

How the results depend on the processing

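Of 1193 member ratios under other settings, 63 had the opposite sign to the main value, 7 of them where the main value was past 1.5-fold and 56 where it was under; of 165 counts of members past 1.5-fold, 145 stayed within 1.5 times. The 7 were, on the log2 scale, with the reference weighted to depth: Id3 in ICRE-positive against Foxp3-positive lymph node cells (-0.08), and in cycling cells Foxo1 in lymph node (0.21) and Ets1 in lymph node (0.07) and spleen (0.32). With the deepest cells left out, Foxo1 in cycling spleen cells reversed (0.30), and under 1500 UMIs Id3 in lymph node (-0.82) and Bach2 in spleen (-0.01) did for ICRE against Foxp3. In that band the intervals for Id3 in lymph node, Bach2 in spleen and Foxo1 in both tissues include a ratio of 1. Among the 56, Foxo1 for ICRE against Foxp3 went from 0.49 to -0.07 (weighted to depth) and -0.80 (under 1500 UMIs) in lymph node and from 0.52 to -0.32 in spleen, and Id3 for Klrg1 against Dapl1 in lymph node from -0.57 to 0.57 when thinned. The count for ICRE against Foxp3 in spleen went from 7 to 2 when weighted to depth, to 2 in each of the bands under 1500 and of 1500 to 2500 UMIs, and to 4 without the deepest cells and with cells weighted equally. For Foxp3 or ICRE against neither in spleen, 1 became 0 when thinned, without the gene and mitochondrial filter, without the deepest cells and with equal weights, and 3 with 2 gate UMIs, which gave 1 rather than 0 in lymph node. Under those spleen settings 0.5%, 0.3%, 0.2%, 0.2% and 1.5% of all genes were lower by 1.5-fold, in that order. With 2 gate UMIs in lymph node 1.7% were. For Klrg1 against Dapl1 in lymph node, 4 became 7 when scaled without ribosomal and mitochondrial genes, where 18.8% of genes were lower by 1.5-fold. For Dapl1 against negative in lymph node, 1 became 2 when weighted to depth (3.25% of genes higher, 8.51% lower). It became 2 with other cell types kept (10.4% lower) and 3 with 2 gate UMIs (8.68% higher, 18.3% lower). In spleen 1 became 0 without ribosomal and mitochondrial genes (5.12% higher, 5.81% lower) and when centred on the median gene (3.56% higher, 4.31% lower). With 2 gate UMIs it became 2 (3.24% higher, 11.3% lower). When weighted to depth the spleen count stayed at 1, but with Lef1 (0.69) in place of Id3 (-0.29). For Il2ra in spleen, 0 became 1 with 2 gate UMIs (0.773% of genes lower). For cycling cells in lymph node, 7 became 3 when weighted to depth (12.5% of genes lower). Causes were not tested.

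The bands and the Ikzf2 restriction were chosen after seeing the data. For shares of cells, the settings on weights, scaling, gates, low values and depth were not run, and ratios with no UMI on a side have no value. Bach2 is limited most by depth, with 1 to 8 UMIs in Klrg1-positive and cycling groups. No paired analysis was possible because each tissue is 1 library, with no replicate to leave out. Droplet libraries hold free RNA, and doublets remain. Which Treg lack Myc is read from ICRE by assumption.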
